A study of Homo sapiens with 9 samples.

Results

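The genes described here are 10 immediate early genes outside the AP-1 family: EGR1, EGR2 and EGR3, KLF2, KLF4, KLF6 and KLF10, IER2 and IER3, and SRF. They were taken by symbol from a table of 58336 genes, and all 10 were in it. Nascent transcription was measured by precision run-on sequencing (PRO-seq), in which engaged RNA polymerases add a labelled nucleotide to the RNA they are making, in MEL624, a human melanoma cell line. The 3 groups were wild-type MEL624 cells with a random guide RNA (control) and 2 PCIF1 knockout clones (KO1 and KO2, called clone 1 and clone 2), each with 3 replicates. PCIF1 is the enzyme that methylates an adenosine next to the mRNA cap. Each knockout group was a single clone, and both clones were set against the same control. The table gave 1 mean per group, so no value has a standard deviation, no test across replicates was possible, and "higher" and "lower" refer to these means only.

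Immediate early genes are transcribed within minutes of a growth factor or stress signal, without new protein synthesis. In the classical route, ERK kinases phosphorylate ternary complex factors such as ELK1, which sit with SRF on CArG boxes in the promoters of genes such as EGR1. EGR proteins are zinc finger activators that bind GC-rich sites and are restrained by the NAB corepressors. KLF proteins bind GC-rich and CACCC-type sites through C-terminal zinc fingers, and KLF2 and KLF4 are known outputs of ERK5 and MEF2 signalling. Melanoma cells often carry an active ERK pathway, which can keep genes of this kind transcribed without an added stimulus.

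The promoters of EGR1 and SRF are shown because both hold CArG boxes while their means in the clones lay on opposite sides of control, and that of KLF2 because this gene differed most from control. Each line gives the 250 bases before the annotated RefSeq start, 5′ to 3′ in the direction of transcription (GRCh38.p14). Capitals mark CArG boxes and the EGR motif GCGNGGGCG, searched on both strands.
EGR1 (chr5:138465229-138465478, plus strand): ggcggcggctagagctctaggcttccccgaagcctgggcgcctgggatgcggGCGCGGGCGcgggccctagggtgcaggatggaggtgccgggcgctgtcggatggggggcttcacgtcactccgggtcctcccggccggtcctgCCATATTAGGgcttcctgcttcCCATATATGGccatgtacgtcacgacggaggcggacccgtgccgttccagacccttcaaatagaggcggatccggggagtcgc
SRF (chr6:43171019-43171268, plus strand): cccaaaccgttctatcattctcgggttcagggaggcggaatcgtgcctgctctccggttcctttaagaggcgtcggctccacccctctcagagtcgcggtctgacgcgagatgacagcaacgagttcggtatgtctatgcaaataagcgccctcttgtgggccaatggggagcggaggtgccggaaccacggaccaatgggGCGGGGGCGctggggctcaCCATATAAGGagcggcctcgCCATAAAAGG
KLF2 (chr19:16324576-16324825, plus strand): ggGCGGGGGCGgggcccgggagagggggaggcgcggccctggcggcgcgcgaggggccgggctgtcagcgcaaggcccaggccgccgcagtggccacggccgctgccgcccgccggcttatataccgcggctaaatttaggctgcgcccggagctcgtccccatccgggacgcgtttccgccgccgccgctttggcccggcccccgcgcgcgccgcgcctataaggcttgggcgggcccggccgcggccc
Within these 250 bases, EGR1 and SRF each held 2 CArG boxes. Those of EGR1 lay 105 to 96 and 83 to 74 bases before the start, and those of SRF 30 to 21 and 10 to 1 bases before it. Only exact matches were searched, and bases farther upstream were not. Of 35116 RefSeq windows of 300 bases (250 before the start, then 50 from it), 1.29% held a CArG box and 9.43% the EGR motif. The EGR motif was found upstream of the start in EGR1, SRF, KLF2, KLF4 and KLF6, and it can overlap the GC box GGGCGG, which 45% of windows held. In these windows no CArG box was found for KLF2, KLF4, KLF6 or IER2, which says only that these letters are not in the window. The table held 10 windows for 7 members; EGR3, KLF10 and IER3 had no entry. SRF has another window, starting at 43172396, with no CArG box, and EGR2 has 3 windows, of which the one starting at 62816366 holds 1 CArG box, 71 to 62 bases before the start. The RefSeq starts of KLF4 and KLF6 lie inside the genes as GENCODE draws them, downstream of the outermost start.

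The first transcribed base is shown because PCIF1 acts on transcripts that begin with adenosine. The lines give 10 bases on either side of the annotated start, with the first transcribed base in capitals.
KLF2 (chr19:16324816-16324836, plus strand): gccgcggcccAcagagccgtc
IER2 (chr19:13150401-13150421, plus strand): cccgccccttAgccctctcgt
SRF (chr6:43171259-43171279, plus strand): ccataaaaggAaacattgtat
EGR1 (chr5:138465469-138465489, plus strand): ggggagtcgcGagagatccca
KLF4 (chr9:107489759-107489779, minus strand): gccggcggccGgcagtttccc
KLF6 (chr10:3785199-3785219, minus strand): ggttacgtttGcagtcagtcc
The annotated first base was A in KLF2 and IER2 and G in EGR1, KLF4 and KLF6, each with 1 window. SRF begins with A at the start shown and with G at its other start, and the 3 starts of EGR2 begin with G, A and A. A was the first base of 44.4% of all windows and G of 33.6%. The start is that of the annotation and was not measured here, and many promoters start at several bases.

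The cell line and the depth behind the values were examined first. Values of a gene are given in the order control, clone 1, clone 2. Of 7 melanocyte markers, 2 had a mean of at least 10 counts: MITF, with 168.5, 142.0 and 259.2, and PMEL, which overlaps CDK2, with 48.4, 21.3 and 23.8. TYR was listed at 0 in all 3 groups, SOX10 at 0 in control and clone 1 and 6.1 in clone 2, MLANA and DCT were below 3 counts, and TYRP1 had 3.3, 6.8 and 3.0 counts, so the label of melanoma rests on few pigment markers here. The 7 blood and endothelial markers summed to 10.0, 10.1 and 11.5 counts, the 6 fibroblast markers to 131.6, 113.5 and 130.0, and the 6 epithelial markers, mainly KRT8 and KRT18, to 1242.2, 1095.5 and 1043.0. The part of these markers in the results was not tested. PCIF1 itself had 239.5, 269.6 and 239.3 counts, which does not check the knockout, since transcription can run through an edited coding sequence. In bulk samples, fewer cells that transcribe a gene and less transcription per cell cannot be told apart.

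Most of these genes were transcribed strongly in control cells. Levels are compared between genes per kb of exon. IER3, an early gene that modulates ERK and survival signalling, had the highest level, at 1792.21, 1606.33 and 1679.32 mean normalized counts per kb. It ranked 40, 41 and 41 from the top among 12525 protein-coding genes. IER2, a nuclear early response protein, followed with 835.93, 648.16 and 561.42 per kb. KLF2, KLF4, KLF6 and KLF10 lay between 92.14 and 364.02 per kb in the 3 groups. EGR1 had 64.14, 89.38 and 83.49 per kb, and SRF 34.97, 24.87 and 23.97. EGR2 and EGR3 were nearly silent, at 0.39, 0.37 and 0.28 and at 0.58, 0.11 and 0.49 per kb. By counts per kb, the members thus ranged from among the highest protein-coding genes to genes at the limit of what the table resolves. The EGR family was represented by EGR1 almost alone. The values give no position within a gene, so polymerase near the start and along the gene could not be told apart. The part of gene length (1356 bases for IER3) in these levels was not tested.

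**Figure D1:**
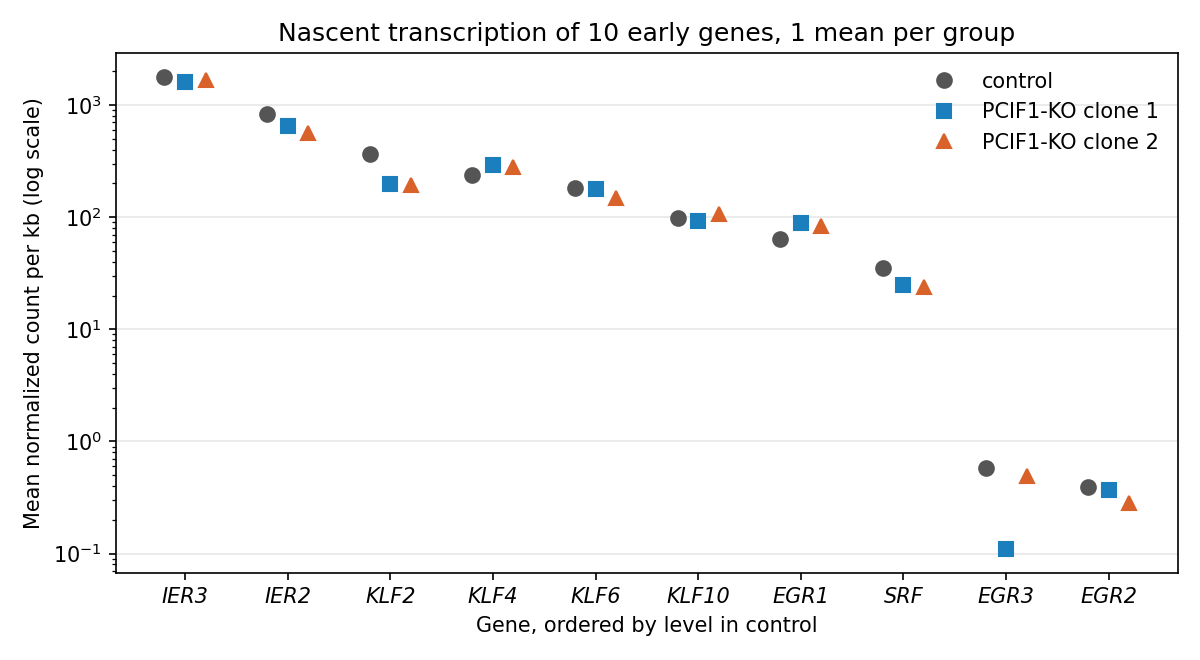
Mean normalized count per kb (log scale) of the 10 genes in control, clone 1 and clone 2, ordered by the level in control. Each symbol is the deposited mean of 1 group, with no error available; KLF2 lies at 364.02 in control and near 200 in both clones, below KLF4 there, while EGR2 and EGR3 lie under 1 in every group.

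The order of levels was the same in control and both clones but for KLF2 and KLF4, and for the near-silent EGR2 and EGR3. KLF4 was at 0.648 times the level of KLF2 per kb in control, at 1.46 times in clone 1 and at 1.45 times in clone 2. No replicate spread was available, so a yardstick was used. It was the central 95% of the log2 ratios of clone 2 to clone 1 among the 500 genes nearest in mean count. This range also contains true differences of the clones, so it is no measure of replicate error. Its lower and upper limits differ in size and would swap with the clones in the reverse order. Of the genes compared below, 3.59% (clone 1) and 5.23% (clone 2) were at least 2-fold off control, against 1.98% between the clones. Ratios to control were thus spread wider. How many of all compared genes lay outside their yardstick was not counted, so lying outside is no measure of rarity. On that yardstick KLF2 stood above KLF4 in control (log2 ratio 0.63 against a spread of up to 0.55), whereas in the clones KLF4 and KLF2 (0.54 and 0.53) did not differ beyond it. These calls depend on the gene length, which for KLF2 is 2018 bases in the deposited table and 2820 bases of exon in GENCODE. With GENCODE lengths for both genes, KLF2 and KLF4 lay within the yardstick in control (260.49 and 235.55 per kb, log2 ratio 0.15), and KLF4 lay beyond it above KLF2 in the clones (log2 ratios 1.02 and 1.01), where KLF2 also came below KLF6. With the deposited lengths, KLF4 and KLF6 in control, KLF2 and KLF6 in both clones, KLF10 and EGR1 in both clones, and KLF6 and KLF10 in clone 2 were neighbours that also lay within it. SRF was the lowest of the 8 well-transcribed members in each group, at a level that EGR1 exceeded 1.83-fold in control, 3.59-fold in clone 1 and 3.48-fold in clone 2.

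For ratios, values per kb were multiplied by gene length to give mean normalized counts, and log2 ratios were taken after adding 1. Genes with a mean of at least 10 counts were compared (17149), which kept 8 members and left out EGR2 (1.44, 1.36 and 1.03 counts) and EGR3 (2.82, 0.53 and 2.38), for which no fold is given. None of the 8 was 2-fold or more off control in either clone. Of all compared genes, 3.59% were in clone 1 (2.27% higher, 1.32% lower) and 5.23% in clone 2 (3.34% higher, 1.9% lower). None of the 8 differed 2-fold between the clones either, where 1.98% of compared genes did. A smaller difference, a log2 ratio of 0.32 or more in size, was used as a second descriptive limit. KLF2, IER2 and SRF were lower by that limit in each clone (3 of 8, against 13.9% of compared genes in clone 1, 18.7% in clone 2 and 8.8% in both), and EGR1 was higher by it (1 of 8, against 16.5%, 21.9% and 12%). The median log2 ratio of the 8 was -0.13 in clone 1 and -0.20 in clone 2, against medians of all compared genes within 0.01 of 0. Of the 8, 6 were lower than control by any amount in clone 1 and 5 in clone 2, where 50.7% and 50.4% of compared genes were, and 5 were lower in both, as were 38.8% of compared genes. With 8 genes such shares are coarse, and the members were not alike in direction.

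**Figure D2:**
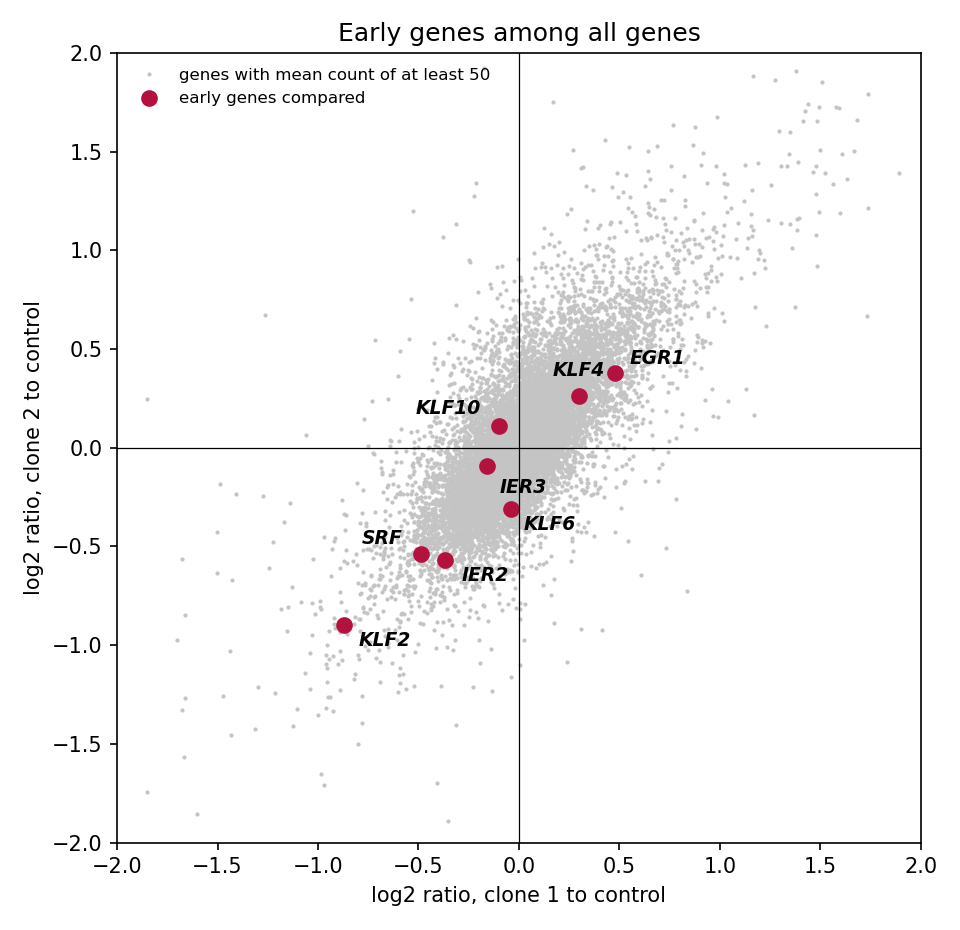
Log2 ratio to control in clone 1 (horizontal) and clone 2 (vertical) for genes averaging 50 counts or more (grey; 51 of 11917 lie outside the axes) and the 8 early genes compared (red). Both axes use the same control mean, which by itself draws points along the diagonal; KLF2 lies farthest from the origin at -0.87 and -0.90, and EGR1 and KLF4 lie in the upper right.

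KLF2, a zinc finger regulator of quiescence and of vascular and lymphocyte gene programmes, differed most of the 8. It lies on chromosome 19 (ENSG00000127528, 16324826 to 16328685, plus strand, 3 exon blocks, GRCh38). It had 734.6 counts in control against 402.8 and 392.6 in the clones, which both lay far below it. The difference was 1.82-fold and 1.87-fold, and the clones lay close together (log2 ratio of clone 2 to clone 1 -0.04). Of the 500 genes nearest in count, 1 had a lower ratio in clone 1 and 1 in clone 2, and both of its ratios were outside the yardstick (-0.35 to 0.44).

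KLF4, a close relative of KLF2 and a reprogramming factor, did not share that direction. It lies on chromosome 9 (107484852 to 107490482, minus strand) and had 862.6 counts in control against 1063.2 and 1029.6 in the clones (0.30 and 0.26), both above control. Of the 500 genes of like count, 68 and 108 had higher ratios, and KLF4 stayed inside the yardstick (-0.36 to 0.55). KLF6, a widely transcribed KLF activator on chromosome 10 (3775996 to 3785281, minus strand), had 1124.1, 1094.8 and 906.9 counts (log2 ratios -0.04 and -0.31), with clone 2 the lowest. KLF10, the TGF-beta-inducible early gene, had 396.1, 368.8 and 427.2 counts (-0.10 and 0.11), so that the clones lay on either side of control. Neither KLF6 nor KLF10 was outside its yardstick.

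EGR1, the zinc finger activator that is the standard readout of ERK and SRF activity, was higher in both clones. It lies on chromosome 5 (138465479 to 138469303, plus strand, 2 exon blocks) and had 201.3 counts in control against 280.5 and 262.0 in the clones. These are 1.39-fold and 1.30-fold differences. Among 500 genes of like count, 21 had a higher ratio in clone 1 and 73 in clone 2, and both ratios were inside the yardstick (-0.37 to 0.56). With the clones in the reverse order, both ratios would lie outside it. Differences of this size were also seen between the clones.

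SRF, the CArG-box factor itself, was lower in both clones. It had 146.9 counts in control against 104.5 and 100.7 in the clones (-0.49 and -0.54). It lies on chromosome 6 (43171269 to 43181506, plus strand), and 41.3% of its span is exonic, the smallest share of the 10 members. The ratio of clone 2 was outside the yardstick (-0.49 to 0.68) and that of clone 1 lay at its edge, inside it. Both ratios would lie inside it with the clones in the reverse order. Of the 500 genes of like count, 19 had a lower ratio in clone 1 and 20 in clone 2. EGR1 and SRF each carry 2 CArG boxes in the promoter windows shown above, and their means differed from control in opposite directions in both clones. Both ratios of EGR1 were inside its yardstick, as was that of SRF in clone 1. By rank, EGR1 in clone 1 (21 genes of like count higher) lay about as far out as SRF in clone 2 (20 lower). EGR1 in clone 2 (73 higher) lay less far out.

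IER2 and IER3 had the highest mean counts and the highest levels per kb of the members. IER2, on chromosome 19 (13150411 to 13154911, plus strand), had 2568.0 counts in control against 1991.1 and 1724.7 in the clones, and was 1.29-fold and 1.49-fold lower. Its ratio of -0.57 in clone 2 was outside the yardstick (-0.38 to 0.54) and that of -0.37 in clone 1 was inside it. Of the 500 genes of like count, 22 had a lower ratio in clone 1 and 13 in clone 2. IER3, a gene of 1 exon block on chromosome 6 (30743199 to 30744548, minus strand), had 2430.2, 2178.2 and 2277.2 counts (-0.16 and -0.09), inside the yardstick in both clones. The other genes of the IER name were also lower than control: IER5 had 1695.3, 1403.7 and 1393.1 counts (-0.27 and -0.28), and IER5L had 719.9, 514.8 and 572.9 (-0.48 and -0.33). Of these 4 ratios, that of IER5L in clone 1 was outside its yardstick (-0.34 to 0.43).

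The annotated first base was set beside these ratios for all genes with a single RefSeq window. The 3796 compared genes beginning with A had median log2 ratios of 0.01 in clone 1 and 0.03 in clone 2, and the 3410 beginning with G had medians of -0.01 and -0.01. Lower than control were 49.2% and 47.2% of those beginning with A, and 52.4% and 51.2% of those beginning with G. Of the 5 compared members with 1 window, KLF2 and IER2 begin with A and were lower than control in both clones. EGR1, KLF4 and KLF6 begin with G, and the first 2 of these were higher and KLF6 lower (-0.04 and -0.31). These are descriptions of 5 genes. Of their ratios, only those of KLF2 and that of IER2 in clone 2 were outside the yardstick. With the clones in the reverse order, those of EGR1 would be as well. The 77 compared genes with a CArG box in the window had medians of -0.02 and 0.06.

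Genes that share a start region with a member were examined next, since PRO-seq also registers transcription that runs away from a promoter. KLF2-DT, a noncoding gene on the opposite strand that starts 312 bases upstream of KLF2, had 73.2, 43.3 and 41.1 counts. Its log2 ratios were -0.74 and -0.82, near those of KLF2 and outside its own yardstick (-0.70 to 0.70). STX10, a syntaxin gene on the opposite strand that starts 28 bases upstream of IER2, had 126.7, 116.1 and 133.3 counts, log2 ratios of -0.12 and 0.07. The pair at KLF2 was lower on both strands, while at IER2 the early gene was lower and STX10 lay near control. KLF10 has a noncoding gene on the opposite strand that starts 516 bases upstream, with 32.2, 30.9 and 17.0 counts (-0.06 and -0.88). IER3-AS1, which overlaps IER3 on the other strand, had 104.0, 110.9 and 110.7 counts. The strand setting of the counting is not given in the sources used here, so reads of IER3 and IER3-AS1, and of IER2 and an overlapping noncoding gene (74.3, 72.1 and 63.1 counts), cannot be told apart with certainty. The same holds for EGR3 and a noncoding gene across it (25.7, 9.6 and 11.0 counts), which exceeded EGR3 in each group.

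The 10 nearest compared genes, 5 on either side, were set beside each member to show the stretch of chromosome around it. Around KLF2 their median log2 ratio was -0.05 in clone 1 and -0.21 in clone 2, and all 10 were above KLF2 in both clones, with KLF2-DT the nearest to it. Around EGR1 the medians were -0.07 and -0.05, and EGR1 was above 10 of 10 in clone 1 and 9 of 10 in clone 2. Around SRF they were -0.15 and -0.24, and around IER2 -0.17 and -0.19, so that these 2 members lay in stretches that were themselves slightly lower, below 8 and 10 of 10 neighbours for SRF and 8 and 9 of 10 for IER2. Around KLF6 the medians were -0.02 and -0.23, close to its own ratios of -0.04 and -0.31. KLF4 (neighbours 0.10 and 0.12) was above 10 of 10 in each clone. EGR2 lies on chromosome 10 in a stretch with medians of 0.24 and 0.62 and had 1.36 and 1.03 counts in the clones.

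**Figure D3:**
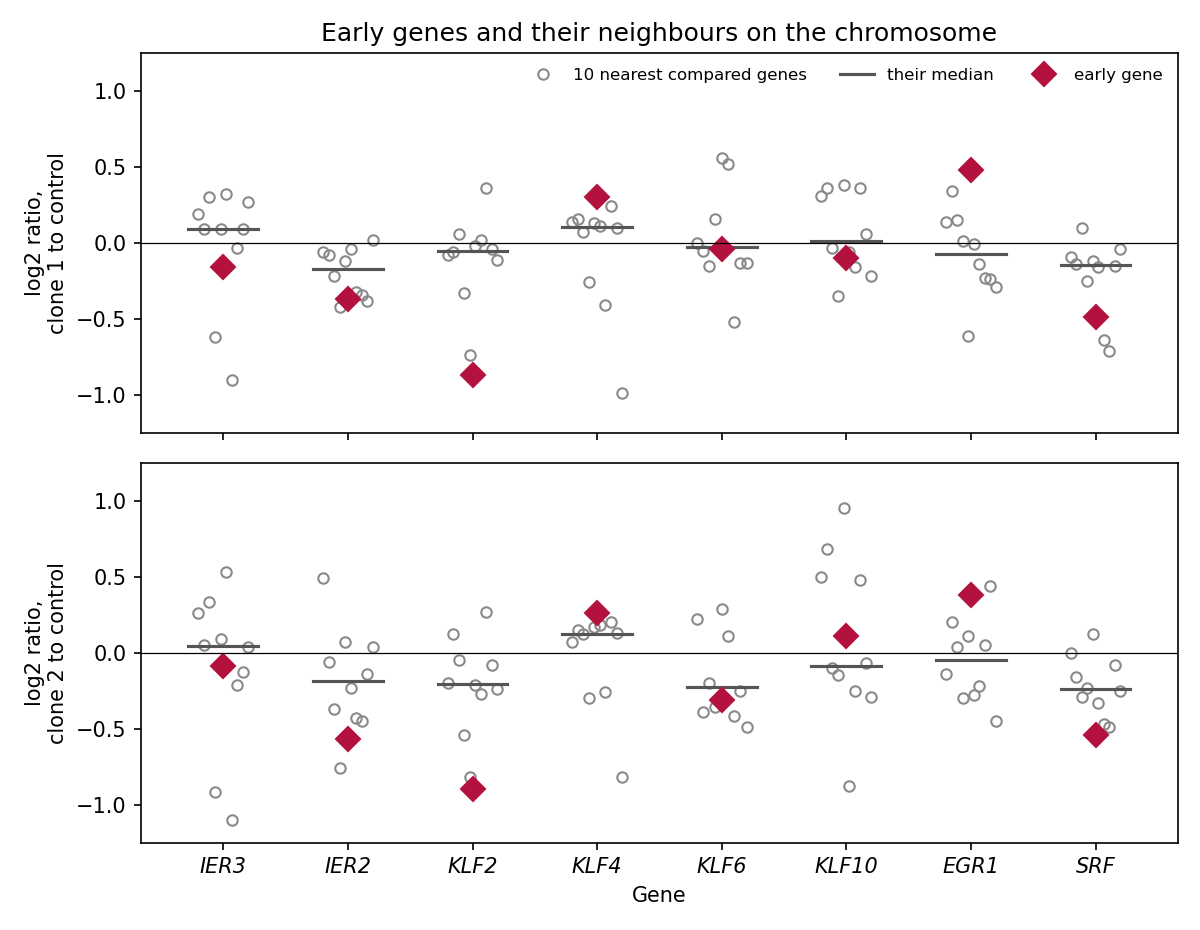
Log2 ratio to control of each of the 8 compared early genes (diamonds), its 10 nearest compared genes (open circles) and their median (line), in clone 1 (top) and clone 2 (bottom); 1 neighbour of KLF6 lies above the axis in each panel. KLF2 lies below all its neighbours and KLF4 above all of its own in both panels.

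The upstream genes of the pathway were given as lists. In these and later lists, genes set against a yardstick were named for large ratios, so lying outside is partly set by that choice. Of 12 ERK cascade kinases, all compared, none was at least 2-fold off in clone 1 and 1 was in clone 2. Of all compared genes, 3.59% and 5.23% were. The 1 gene was RPS6KA2, an RSK kinase gene, with 76.0, 57.0 and 22.8 counts. Its log2 ratio of -1.70 in clone 2 was outside its yardstick (-0.73 to 0.73). The median of the list was -0.05 and -0.20. The MEK genes, named after their values were known, lay in opposite directions, with MAP2K1 at 161.2, 195.0 and 235.1 counts and MAP2K2 at 207.6, 156.2 and 151.0. Of 6 SRF cofactors, 5 were compared and none was 2-fold off (3.59% and 5.23% of all compared genes), with medians of -0.04 and -0.05. MRTFA, the actin-responsive coactivator, had 117.3, 146.9 and 134.3 counts, and the ternary complex factor ELK3 had 338.9, 301.4 and 255.8. The ratio of ELK3 in clone 2 (-0.40) was outside its yardstick (-0.36 to 0.57). It would lie inside with the clones in the reverse order.

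Of all compared genes, 3.59% were at least 2-fold off in clone 1 and 5.23% in clone 2. In the ERK5 and MEF2 list the single such gene, in both clones, was MEF2C. MEF2C is a MADS-box factor of the group that activates KLF2 downstream of ERK5. It had 125.7 counts in control against 281.3 and 287.3 in the clones (1.16 and 1.19), outside its yardstick (-0.35 to 0.55), while its 10 neighbours had medians of 0.11 and 0.25. KLF2 and MEF2C differed from control in opposite directions in both clones. KLF4 (0.30 and 0.26) lay on the same side as MEF2C, inside its yardstick. A link between these genes was not tested. The other 6 compared genes of that list were within 2-fold, with MAPK7, the ERK5 gene, at 113.6, 95.2 and 98.8 counts. In the TGF-beta and SMAD list, to which KLF10 responds in other settings, 12 of 13 compared genes lay below control in the first clone and 9 in the second (medians -0.21 and -0.07), against 50.7% and 50.4% of all compared genes. The ligand gene TGFB1 had 67.3, 31.8 and 70.4 counts and was more than 2-fold lower in clone 1 alone. Of all compared genes, 1.32% were at least 2-fold lower in clone 1.

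Most of the other KLF and SP genes compared lay below control in clone 1, with a more even split in clone 2. Of 13 other KLF genes, 10 were compared, and 8 and 6 of these lay below control (medians -0.23 and -0.03), against 50.7% and 50.4% of all compared genes. By log2 ratio KLF14 alone was 2-fold lower, and in clone 1 only, at 18.4, 5.4 and 10.5 counts. Of all compared genes, 1.32% were 2-fold lower in clone 1 and 1.9% in clone 2. KLF11, picked with its values in view, had 111.6, 70.5 and 55.6 counts (-0.65 and -0.99). Its ratio in clone 2 fell just short of the 2-fold limit after adding 1 to the counts. KLF5, picked likewise, had 509.4, 507.7 and 503.6 counts. Of 9 SP genes, 6 were compared, and 5 and 3 of these lay below control (medians -0.14 and -0.08), against the same 50.7% and 50.4%. SP2 had 116.7, 104.6 and 90.2 counts, and SP6 22.8, 14.2 and 13.3. The corepressor gene NAB1 had 81.5, 116.5 and 110.4 counts (0.51 and 0.43), in a stretch of chromosome 2 whose 10 nearest genes had medians of 0.65 and 0.65, and NAB2, itself a target of EGR proteins, had 111.7, 94.9 and 98.4 (-0.23 and -0.18). EGR4 was at 1.4, 1.1 and 1.0 counts.

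Other early genes and SRF targets were set beside the members. The 8 AP-1 and ATF3 genes had medians of -0.18 and -0.37, with 7 and 8 of them below control, against 50.7% and 50.4% of all compared genes. FOSL2 was at 994.5, 812.0 and 639.7 counts (-0.29 and -0.64) and JUNB at 623.3, 440.7 and 488.7 (-0.50 and -0.35). FOSL2 was outside its yardstick (-0.33 to 0.53) in clone 2. JUNB was outside its own (-0.35 to 0.43) in clone 1 and at its edge in clone 2. Of 21 further immediate early genes, 19 were compared (medians 0.02 and -0.13). RHOB, a small GTPase gene, was the single gene at least 2-fold off, in clone 1 only, against 3.59% and 5.23% of all compared genes. It had 1059.3, 392.4 and 665.3 counts. Its log2 ratios of -1.43 and -0.67 were both outside its yardstick (-0.32 to 0.48). Of the 12 attenuators of the early response, none was 2-fold off (3.59% and 5.23% of all compared genes), with medians of 0.02 and 0.10. DUSP1, the phosphatase that dephosphorylates MAP kinases, had 1919.3, 1519.5 and 1285.9 counts (-0.34 and -0.58), and DUSP10 34.4, 40.7 and 50.6 counts. The ratio of DUSP1 in clone 2 was outside its yardstick (-0.40 to 0.53).

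The cytoskeletal targets of MRTF and SRF lay below control at 10 and 9 of 13 compared genes (medians -0.20 and -0.33), where 50.7% and 50.4% of all compared genes did. None was 2-fold off, against 3.59% and 5.23% of all compared genes. FHL2 and CNN2 were named because their mean ratios were the largest in size of the 13. FHL2, a LIM-domain cofactor, had 551.4, 370.1 and 307.2 counts (-0.57 and -0.84), outside its yardstick (-0.33 to 0.46) in both clones. CNN2, a calponin gene, had 91.7, 68.5 and 54.9 counts (-0.42 and -0.73), outside its yardstick (-0.54 to 0.69) in clone 2. By the smaller limit of 0.32, 4 and 7 of the 13 were lower, against 13.9% and 18.7% of compared genes, and 1 and 3 were higher, against 16.5% and 21.9%. The 3 higher in clone 2 all lie on chromosome 10: ACTA2 (26.0, 26.9 and 51.7 counts), VCL (1200.7, 1377.0 and 1829.7) and ANKRD1 (222.0, 220.5 and 316.4), named with their values in view. Because the clones share the control, the 2 comparisons are not independent of each other.

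**Figure D4:**
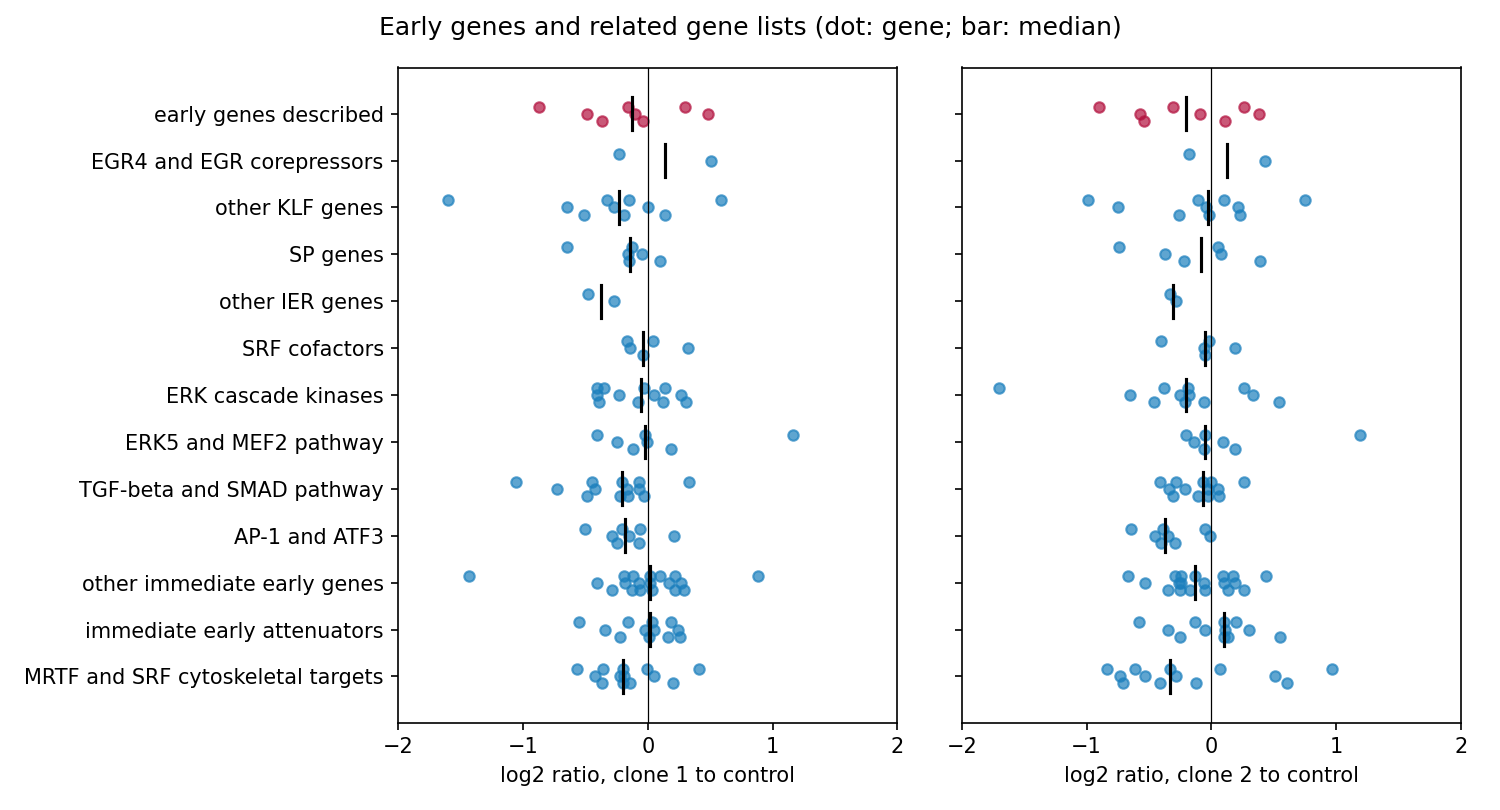
Log2 ratio to control in clone 1 (left) and clone 2 (right) of each compared gene (dots) in the 8 early genes (red) and related lists (blue), with the median of each list (bar). The AP-1 and ATF3 genes and the cytoskeletal targets have medians of -0.37 and -0.33 in clone 2; MEF2C, at 1.16 and 1.19, is the rightmost dot of the ERK5 and MEF2 row.

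The protein-coding genes whose 2 ratios lay nearest to those of KLF2, among 4846 with at least 200 counts, were SMOX (spermine oxidase; -0.92 and -0.86), MAVS (an antiviral signalling adaptor; -0.79 and -0.87) and PANK2 (pantothenate kinase; -0.77 and -0.83). The distances in the plane of both log2 ratios were 0.068, 0.084 and 0.118. The likeness rests on 3 group means. All 3 genes lie on chromosome 20 between 3846799 and 4187747, where the 10 nearest genes of each had medians from -0.64 to -0.72 in clone 1 and from -0.85 to -0.91 in clone 2. KLF2 differed from them in that its own neighbours had medians of -0.05 and -0.21.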

How the data were processed

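PRO-seq was carried out on 9 libraries, 3 replicates of each of 3 groups. The deposited signal is, per the file headers, a group mean of normalized counts per kb of gene length, rounded to 0.01, with no value per library. DESeq2, featureCounts, Bowtie 1.2.2 and cutadapt 1.14 were used, per the submitters' processing notes. What was counted, on which strand, and whether the Drosophila spike-in set the scale is not given in the sources used here, so the scaling could hide a shift shared by every gene. The depth of single libraries is unknown, and the summed normalized counts (3760730 in control, 3759168 in clone 1, 3823178 in clone 2) are set by the scaling.

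The header has 6 names and the rows 5 cells; the gene symbol was taken as the missing cell, since the next cell matches the exon length of the gene in GENCODE release 44 exactly for 64.4% of 57754 identifiers and to within 5% for 83.1%. Symbols and positions come from that release, and 582 identifiers had no match. Promoter sequences come from RefSeq (GRCh38.p14).

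Values were multiplied by length in kb; genes with a mean of at least 10 counts were compared by log2(count + 1) ratios, which understate differences of low genes. A 2-fold difference, and a log2 ratio of 0.32 as a smaller one, were descriptive; no test was possible. The ratio and fold steps were run on simulated means with counting noise only. This checks the arithmetic, not the spread between replicates or clones. All members are named; in each list, the genes at least 2-fold off (at most 4) or else the 2 with the largest mean ratio, and the 3 genes nearest KLF2 in pattern; others among lists were named after their values were seen. The members and lists were chosen with earlier results of these data known. The alternatives were the scale per kb, quantile normalization, rescaling by the median of ratios, a pseudocount of 0.5 or 5, a floor of 50 counts, and no floor; GENCODE exon lengths for levels per kb were added after the values were seen. Python 3.11.15, numpy 2.4.6, pandas 2.3.3 and matplotlib 3.10.9 were used.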

Additional observations from a re-analysis of the deposited data

How the results depend on the processing

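Under the 7 other scalings, pseudocounts and filters, the log2 ratios of the 8 compared members kept their sign in all 16 cases (8 genes, 2 clones). The scale per kb, the pseudocounts and the floors cannot change a sign. Only quantile normalization and rescaling by the median of ratios could have done so. KLF2 ran from -0.87 to -0.86 in clone 1 and from -0.93 to -0.88 in clone 2, EGR1 from 0.46 to 0.48 and from 0.33 to 0.40, SRF from -0.50 to -0.47 and from -0.58 to -0.52, and IER2 from -0.37 to -0.35 and from -0.57 to -0.50. With GENCODE exon lengths, an alternative chosen after seeing the data, the log2 level per kb of KLF4 to KLF2 was -0.15, 1.02 and 1.01 in control and the clones, in place of -0.63, 0.54 and 0.53. The ratio of IER3 in clone 2 came nearest to 0, at -0.03. With no filter on low counts, the number of members at least 2-fold off in clone 1 was 1 in place of 0, which was EGR3, at 2.82 against 0.53 counts. Of 32 counts of 2-fold genes in the other lists, 12 moved by over 1.5 times under at least 1 alternative, all of them counts of 3 or fewer. The 2-fold call of KLF14 was lost per kb and with a floor of 50, where it is not compared, that of RPS6KA2 per kb likewise, and that of TGFB1 with a pseudocount of 5. Calls were also gained. Under quantile normalization, 1 of the other KLF genes was 2-fold off in clone 2, in place of 0. No paired analysis was possible because the table holds 1 mean per group, and for the same reason no replicate could be left out. Values near 1 count, as for EGR2 and EGR3, are limited by depth and by rounding.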
